A study of Mus musculus with 10 samples.

Results

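Homologous recombination and the Fanconi anemia pathway were examined as a set of 38 genes in the stem and progenitor cells of mouse marrow (HSPCs), which renew the blood. The members were taken by gene symbol from the 55573 annotated genes of each count file, and all 38 were found. RNA had been sequenced in 10 libraries of bone marrow HSPCs from C57BL/6 mice (C57BL/6J in the design text), 16 weeks of age, at 6 weeks after 500 cGy of irradiation of the whole body. Saline had been injected under the skin for 5 of the libraries, and epidermal growth factor (EGF) for the other 5. Both groups were irradiated, so the comparison asks how these genes differ with EGF among irradiated mice and not how they respond to radiation. Neither the sorting gate nor the dosing of EGF is stated. Nothing ties each library to its own animal, and p-values then reflect only how much these libraries vary, which may be technical.

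Homologous recombination repairs a broken chromosome by copying the sister chromatid. The broken ends are first trimmed to single strands, the strands are coated by the RPA complex, and BRCA1, PALB2 and BRCA2 then help to load a recombinase that invades the intact copy. The Fanconi pathway acts where the strands of DNA are crosslinked: its core complex attaches ubiquitin to FANCD2 and FANCI, which recruits nucleases and hands the break to homologous recombination. Inherited loss of the pathway causes Fanconi anemia, in which stem cells of the marrow are lost.

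Library depth was 6805106 to 8370820 counts. EGF replicate 5 stood apart: 12731 genes had a count in it, against 18734 to 20046 in the other 9 libraries, and it held the highest or lowest value of all 10 libraries at 81.3% of the 12874 genes tested. Counts of genes called are therefore given with and without it, and the plot of fold changes shows both fits for every gene. Markers of HSPCs were present: the cytokine receptor gene Kit was at 418 ± 27.0 CPM (counts scaled to a common library size after TMM adjustment; mean ± SD, n = 5) with saline and 475 ± 20.4 CPM (SD, n = 5) with EGF, and Cd34 at 360.4 ± 45.2 and 338 ± 58.5 CPM. The summed level of 14 HSPC markers was 2712 to 2941 CPM in the saline libraries and 2997 to 3590 CPM in the EGF libraries (2997 to 3072 CPM without EGF replicate 5), with no overlap. Of single genes tested, 3.27% separated in that way, and 5.01% without EGF replicate 5. A sum over 14 genes is an unlike measure, and no share was computed for such sums. The sum is led by its most abundant genes and does not show a rise of each marker. Kit alone overlapped (up to 448 CPM with saline, down to 447 CPM with EGF). Cd34 averaged lower with EGF, where EGF replicate 5 held the lowest value of the 10 libraries (254 CPM). EGF replicates 1 to 4 (316 to 412 CPM) lay within the saline range of Cd34 (299 to 427 CPM). The summed level of 12 neutrophil markers was 1656 to 5762 CPM with saline and 1754 to 2819 CPM with EGF (1754 to 2571 CPM without EGF replicate 5). That of 12 B and plasma cell markers was 699 to 1490.0 CPM with saline and 192 to 924 CPM with EGF, where EGF replicate 5 alone held the lowest value; without it the EGF range was 449 to 924 CPM. The neutrophil genes Ly6g and Retnlg and the B cell genes Ms4a1, Vpreb1, Vpreb3 and Igll1 averaged under 1 CPM. Summed markers of T and NK cells (10 genes), monocytes and macrophages (10), red cell precursors (12), megakaryocytes (6) and stroma and endothelium (8) overlapped between the groups. In bulk RNA, fewer cells of a type and less RNA per cell cannot be told apart, and the part of cell composition in the results on the repair genes was not tested.

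All 38 genes were expressed and all passed the filter on low counts. Divided by the length of their annotated exons, their levels ran from 0.957 ± 0.254 CPM per kb for Rad51c to 64.3 ± 3.10 CPM per kb for Usp1, with a median of 5.54 (mean ± SD over the 9 libraries other than EGF replicate 5). Usp1 encodes the protease that removes ubiquitin from FANCD2 and FANCI, and Rad51c a paralog of the recombinase. Rad50 came next below Usp1, at 37.9 ± 1.55 CPM per kb, followed by Rpa1 (24.4 ± 2.60) and Rpa2 (18.5 ± 3.49), whose ranges over 1 SD overlapped. At the low end stood Fancc (1.61 ± 0.248), Ube2t (2.10 ± 0.398), Rad52 (2.15 ± 0.258) and Fancb (2.26 ± 0.484); the last 3 lay within 1 SD of each other. The genes of the Fanconi core complex and Fancm held 1.61 to 4.19 CPM per kb, while those of end resection held 5.79 to 37.9. The length used counts all annotated exons of a gene together, whichever transcripts are expressed. Levels per kb and their order between genes depend on it: Ube2t (10.15 CPM over 4836 exonic bases) ranked 36 and Rpa3 (11.73 CPM over 1136) ranked 9. Within a gene the 9 libraries were close: the coefficient of variation was 4.1% for Rad50 and 26.5% for Rad51c at the extremes, with a median of 11.4%, where counting error alone gives a median of 6.2%.

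**Figure D1:**
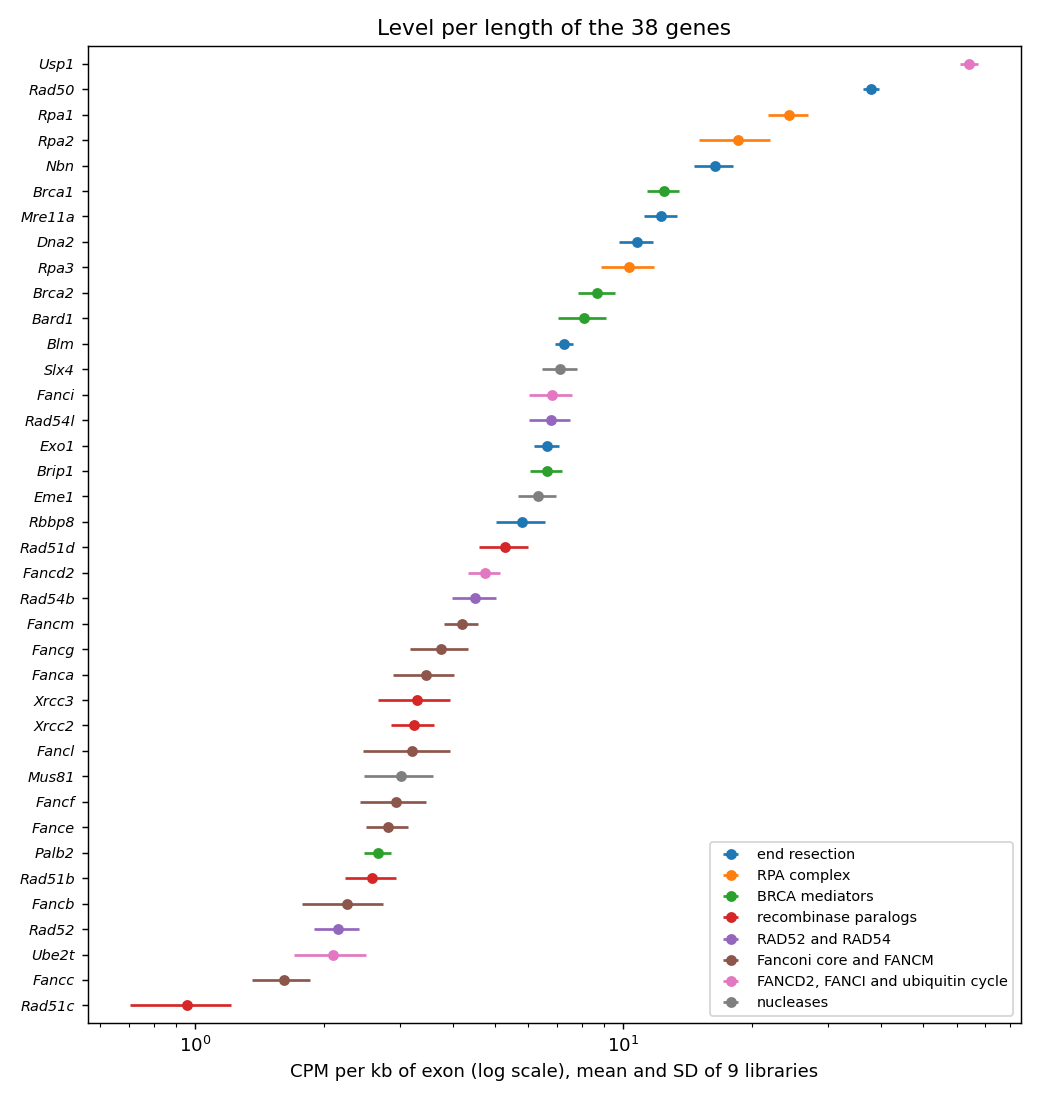
Level of each gene in CPM per kb of annotated exon on a log scale; points are means and bars SDs over the 9 libraries other than EGF replicate 5, coloured by role. Usp1 and Rad50 lie highest and Rad51c lowest, and the genes of the Fanconi core complex lie in the lower part of the order.

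Promoter windows of 29 of the 38 genes were in the RefSeq table used (GRCm38.p6, the build of the files), and the 250 bases before the start were searched on both strands. An E2F word is the site of the factors that drive S phase genes (TTTCCCGC, TTTGGCGC, TTTCGCGC or TTTGCCGC). It lay in 3 of the 29 genes (10.3%, Brca2, Bard1 and Fancg), against 4.1% of 9320 tested genes with a window and 2.2% of all 27025 genes with one. A gene with several windows counted once, as a match if any of them held the word. The word CCAAT, read by the factor NF-Y, lay in 18 (62.1%), against 41.0% and 37.5%, and TTTGAA, the core of the element of late cell cycle genes known as CHR, in 1 (3.4%), against 13.0% and 18.3%. GGGCGG, the GC box, lay in 16 (55.2%), against 64.2% and 35.4%. A window may hold several of these words, and a match is a description of the letters and not of binding. The stretches below are shown for the letters the windows share: the stretch before Brca2 with its E2F word, read on the other strand, in capitals, and those of Brip1, Ube2t and Xrcc3 with each CCAAT, or its complement ATTGG, in capitals. They were picked among windows with an E2F word or at least 3 CCAAT because no annotated exon overlaps them.
Brca2, chr5:150522408-150522505, plus strand: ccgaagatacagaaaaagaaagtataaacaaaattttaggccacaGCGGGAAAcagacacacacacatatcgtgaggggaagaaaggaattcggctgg
Brip1, chr11:86201194-86201337, minus strand: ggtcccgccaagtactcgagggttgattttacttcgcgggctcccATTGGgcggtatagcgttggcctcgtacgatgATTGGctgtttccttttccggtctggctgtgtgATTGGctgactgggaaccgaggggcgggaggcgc
Ube2t, chr1:134962396-134962564, plus strand: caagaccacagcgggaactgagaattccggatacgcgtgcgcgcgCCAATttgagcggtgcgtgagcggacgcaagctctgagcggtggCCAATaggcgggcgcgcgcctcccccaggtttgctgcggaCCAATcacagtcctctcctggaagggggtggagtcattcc
Xrcc3, chr12:111813880-111814129, minus strand: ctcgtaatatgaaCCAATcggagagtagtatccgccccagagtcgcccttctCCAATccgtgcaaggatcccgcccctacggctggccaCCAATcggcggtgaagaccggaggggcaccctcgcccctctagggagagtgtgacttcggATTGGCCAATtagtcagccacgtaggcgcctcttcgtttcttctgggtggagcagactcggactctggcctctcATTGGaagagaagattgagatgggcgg
The Brca2 word begins 168 bases before the start, and the 6 CCAAT words of Xrcc3 begin between 237 and 27 bases before it, with one pair back to back.

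With EGF, no gene of the set differed from saline past the threshold. In edgeR's quasi-likelihood test, adjusted by Benjamini-Hochberg over 12874 genes, 0 of 38 were below 0.05, where 0.00777% of all genes did (1 gene). Adjusted p lay between 0.551 and 0.998. At an unadjusted p under 0.05 there were also 0 of 38, where 8.87% of all genes were. Neither DESeq2 (0 of 38) nor limma-voom with quality weights (0 of 38) called any; at an unadjusted p under 0.05 DESeq2 had 1, Fancl, and limma-voom 0. The log2 fold change of EGF against saline, given below ± its standard error, was above 0 for 20 genes and below 0 for 18, with a median of 0.04, against 48.5% above 0 and a median of -0.01 over all genes tested. For 0 of 38 genes did the 5 EGF libraries lie wholly above or below the 5 saline libraries, where 3.27% of all genes separated in that way.

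Without EGF replicate 5 the outcome was the same count with narrower intervals. Of the 38, 0 passed, with 0 at an unadjusted p under 0.05, where 0.0611% of 13104 genes passed and 15.8% had an unadjusted p under 0.05. The groups did not overlap for 0 of 38 genes, where this held for 5.01% of all genes. The median standard error of the log2 fold change of the members fell from 0.20 to 0.12, and the median size of the log2 fold change went from 0.19 to 0.08. The same median over all genes tested went from 0.23 to 0.15. The largest and smallest log2 fold changes were then 0.29 for Fancl and -0.32 for Fancb, where with all 10 libraries they were 0.86 for Fancl and -0.46 for Xrcc3. The 95% interval of the fold change lay between a 2-fold rise and a 2-fold fall for all 38 genes without that library and for 28 with it, and between a 1.5-fold rise and a 1.5-fold fall for 34 and 16. The sign differed between the 2 fits for 10 genes: Blm, Brip1, Rad52, Rad54l, Fance, Fancf, Fancg, Fancm, Usp1 and Slx4.

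**Figure D2:**
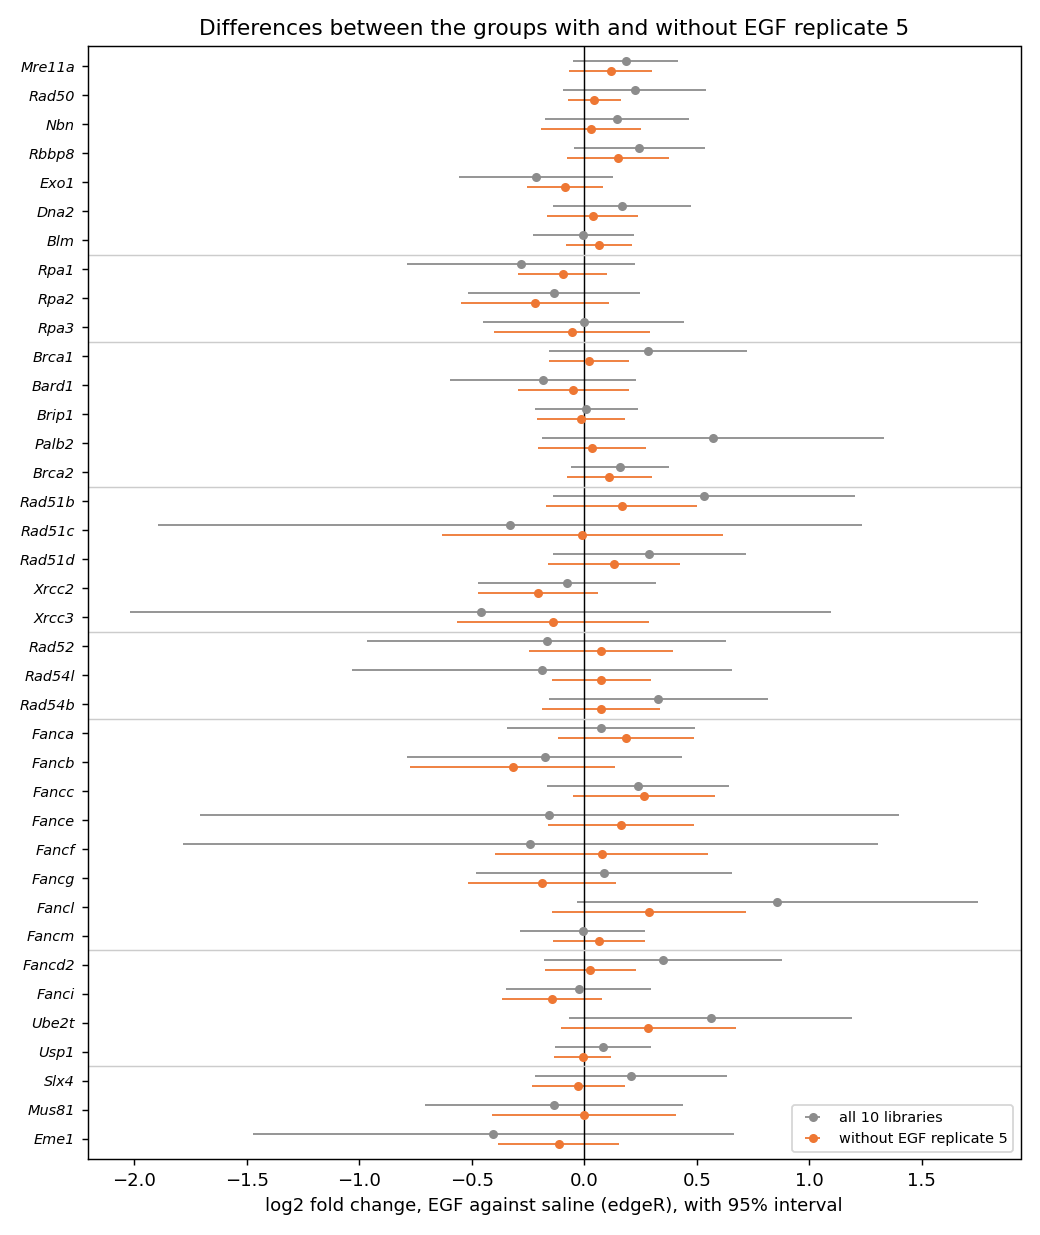
log2 fold change of EGF against saline for each gene by edgeR, with its 95% interval, from all 10 libraries (grey) and without EGF replicate 5 (orange); lines separate the roles. Every interval includes 0 in both fits, and the intervals are widest with all 10 libraries for Xrcc3, Rad51c, Fance and Fancf, which had 0 counts in EGF replicate 5.

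End resection begins with the MRE11, RAD50 and NBN complex, which senses and trims the break. Mre11a, the nuclease, was at 60.4, 69.1, 77.2, 67.1 and 76.2 CPM in Saline replicates 1 to 5 and at 82.4, 76.0, 75.2, 70.4 and 93.8 CPM in EGF replicates 1 to 5. Its EGF libraries lay in the upper part of the saline range or above it, with a log2 fold change of 0.18 ± 0.11 and 0.12 ± 0.09 without EGF replicate 5, neither past the test (edgeR adjusted p = 0.584 and 0.517). Rad50, the ATPase that tethers the ends, was the steadiest gene of the set, at 190.2 to 214 CPM in 9 libraries and 344 CPM in EGF replicate 5; its log2 fold change was 0.23 ± 0.14 with all libraries and 0.04 ± 0.05 without that one. Nbn, which brings the ATM kinase to the complex, was at 35.9 to 47.8 CPM with saline, 36.0 to 46.5 CPM in EGF replicates 1 to 4 and 59.4 CPM in EGF replicate 5. Per kb, Rad50 exceeded Mre11a by a factor of 2.80 to 3.47 with saline, 2.74 to 3.35 in EGF replicates 1 to 4 and 4.04 in EGF replicate 5.

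Rbbp8 encodes CtIP, which starts resection together with MRE11. It was at 60.9, 75.2, 77.0, 67.9 and 64.6 CPM in Saline replicates 1 to 5 and at 68.1, 80.9, 66.8, 91.4 and 102 CPM in EGF replicates 1 to 5. EGF replicates 2, 4 and 5 lay above all saline libraries and EGF replicates 1 and 3 within them; the log2 fold change was 0.24 ± 0.13, and 0.15 ± 0.11 without EGF replicate 5 (edgeR adjusted p = 0.566 and 0.497). The long-range nuclease Exo1 leaned the other way, at 58.0, 57.7, 55.4, 55.1 and 60.1 CPM with saline and 59.9, 54.2, 47.8, 53.8 and 31.1 CPM with EGF. EGF replicates 2 to 5 lay below all 5 saline libraries and EGF replicate 1 within them, and the log2 fold change of -0.21 ± 0.16 did not pass (edgeR adjusted p = 0.643); it was -0.09 ± 0.08 without EGF replicate 5. Dna2, the other long-range nuclease, had a log2 fold change of 0.17 ± 0.14, and 0.04 ± 0.09 without that library. The helicase gene Blm had -0.004 ± 0.10 and 0.07 ± 0.07. Blm spanned only 61.0 to 69.0 CPM over the 9 libraries, against 49.6 CPM in EGF replicate 5.

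The RPA complex covers single-stranded DNA. Rpa1, its large subunit, was at 121, 133, 153, 149 and 144 CPM in the saline libraries and at 145, 139, 107, 133 and 50.7 CPM in the EGF libraries. EGF replicates 3 and 5 lay below all saline libraries and the other 3 EGF libraries within their range (log2 fold change -0.28 ± 0.23, and -0.10 ± 0.09 without EGF replicate 5). Rpa2, the middle subunit, was at 56.2, 53.2, 67.9, 63.6 and 54.5 CPM with saline and 56.2, 66.2, 34.2, 46.6 and 66.0 CPM with EGF. Here the low libraries were EGF replicates 3 and 4, while EGF replicate 5 lay inside the saline range, and the log2 fold change was -0.13 ± 0.17 and -0.22 ± 0.15 without it (edgeR adjusted p = 0.796 and 0.497). Rpa3, the small subunit, had a log2 fold change of -0.06 without EGF replicate 5 and stood at 9.52 to 13.6 CPM in the 9 libraries. The 3 subunits did not keep one ratio in EGF replicate 5: per kb, Rpa1 over Rpa2 was 1.15 to 1.41 with saline, 1.12 to 1.68 in EGF replicates 1 to 4 and 0.412 in EGF replicate 5.

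Among the BRCA genes, Brca1, the ubiquitin ligase that promotes resection, was at 107, 102, 122, 98.4 and 96.4 CPM in Saline replicates 1 to 5 and at 109, 106, 96.6, 117 and 214 CPM in EGF replicates 1 to 5. Without the last library, which held the highest value of the 10, the groups overlapped and the log2 fold change was 0.02 ± 0.08, against 0.28 ± 0.20 with it; the 95% interval of the former was -0.16 to 0.20. Its partner Bard1 was at 39.7, 44.9, 50.1, 44.4 and 52.5 CPM with saline and 43.5, 53.8, 36.1, 45.9 and 24.5 CPM with EGF, and EGF replicate 5 was the lowest of all for this gene. EGF replicates 1 and 4 lay within the saline range, EGF replicate 2 just above it and EGF replicate 3 just below it, and the log2 fold change was -0.18 ± 0.19 with all libraries and -0.05 ± 0.12 without EGF replicate 5. Brca1 and Bard1 act as a pair; per kb, Brca1 over Bard1 was 1.22 to 1.79 with saline, 1.30 to 1.77 in EGF replicates 1 to 4 and 5.78 in EGF replicate 5. Brip1, a helicase that binds BRCA1, was at 42.8 to 55.0 CPM over the 9 libraries and at 53.2 CPM in EGF replicate 5, and its log2 fold change was 0.01 ± 0.10 with all libraries and -0.01 ± 0.09 without that one.

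Palb2 links BRCA1 to BRCA2. It was at 19.3, 18.7, 21.03, 18.0 and 19.9 CPM in the saline libraries and at 17.8, 18.9, 22.0, 20.8 and 64.9 CPM in the EGF libraries. The first 9 libraries lay within a narrow band, and EGF replicate 5 alone lay at 3.31 times their mean. The log2 fold change was 0.57 ± 0.34 with that library and 0.03 ± 0.11 without it. Brca2, which loads the recombinase, was at 109, 104, 125, 109 and 124 CPM with saline and 129, 105, 124, 137 and 144 CPM with EGF. EGF replicates 1, 4 and 5 were above all saline libraries and EGF replicates 2 and 3 within them, and neither the value of 0.16 ± 0.10 nor that of 0.11 ± 0.09 without EGF replicate 5 passed (edgeR adjusted p = 0.607 and 0.548).

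The recombinase paralogs Rad51b, Rad51c, Rad51d, Xrcc2 and Xrcc3 form complexes that help the recombinase to assemble, and the level per kb of each was below the median of the set. Rad51b was at 9.65, 8.30, 9.27, 9.54 and 9.35 CPM in Saline replicates 1 to 5 and at 8.65, 10.3, 9.56, 12.9 and 25.4 CPM in EGF replicates 1 to 5. EGF replicates 2, 4 and 5 exceeded all saline libraries, EGF replicate 3 lay near their top, and EGF replicate 1 near the bottom (log2 fold change 0.53 ± 0.31, and 0.17 ± 0.16 without EGF replicate 5). Xrcc2 was at 15.9, 19.1, 19.2, 18.4 and 17.1 CPM with saline and 17.1, 17, 13.7, 14.5 and 22.8 CPM with EGF, so EGF replicates 1 to 4 lay in or below the lower part of the saline range and EGF replicate 5 above it. Its log2 fold change was -0.08 ± 0.18, and -0.20 ± 0.12 without that library, with a 95% interval of -0.47 to 0.06. Rad51d, at 14.3 to 22.4 CPM with saline and 19.7 to 21.9 CPM in EGF replicates 1 to 4, had 0.13 ± 0.14 in the same fit and 0.29 ± 0.20 with all libraries. Rad51c and Xrcc3 had 0 counts in EGF replicate 5, which allows a level of up to 0.42 CPM there (3 counts, counting error only), against 2.14 to 5.78 and 5.85 to 11.7 CPM in the other 9; without it their log2 fold changes were -0.01 ± 0.29 and -0.14 ± 0.20, and with it -0.33 ± 0.71 and -0.46 ± 0.71.

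RAD54 proteins drive strand exchange on chromatin, and RAD52 anneals single strands. Rad54l was at 50.8, 51.9, 55.1, 48.4 and 48.3 CPM in the saline libraries and at 60.3, 60.8, 43.4, 50.2 and 8.27 CPM in the EGF libraries. EGF replicates 1 and 2 lay above the saline range, EGF replicate 4 inside it, EGF replicate 3 below it and EGF replicate 5 far below it, and the log2 fold change turned from -0.19 ± 0.38 to 0.08 ± 0.10 without the last. Of the exonic bases of Rad54l, 15.4% lie opposite exons of Lrrc41. Its relative Rad54b went the other way in EGF replicate 5, at 52.8 CPM against 21.6 to 30.4 CPM, and exons of Fsbp on the same strand cover 35.8% of its exonic bases, so its counts are uncertain. Rad52 was at 10.2 to 14.3 CPM in 9 libraries and 2.80 CPM in EGF replicate 5.

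The Fanconi core complex is a ubiquitin ligase built from many subunits. Fancl, its catalytic subunit, had the smallest unadjusted p of the set. It was at 8.88, 12.8, 9.63, 10.9 and 6.94 CPM in Saline replicates 1 to 5 and at 9.28, 10.9, 12.4, 15.3 and 41.3 CPM in EGF replicates 1 to 5. EGF replicates 4 and 5 lay above all saline libraries and EGF replicates 1 to 3 within their range, and the log2 fold change of 0.86 ± 0.41 dropped to 0.29 ± 0.20 without EGF replicate 5 (edgeR adjusted p = 0.551 and 0.496). Of its exonic bases, 13.7% lie opposite exons of Vrk2, and without a stated strand setting reads of the 2 cannot be told apart there. Fanca, which belongs to the same complex with Fancg, was at 22.0, 32.3, 33.8, 24.9 and 29.8 CPM with saline and 29.7, 27.6, 35.0, 37.6 and 20.2 CPM with EGF. EGF replicates 3 and 4 were above the saline range, 1 and 2 inside it and 5 below it, for a log2 fold change of 0.07 ± 0.19 and 0.19 ± 0.14 without EGF replicate 5.

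The other core genes apart from Fancm were sparse, as was Fancl, with 52 to 130 counts in the 9 libraries other than EGF replicate 5. Fance, which contacts FANCD2, and the adaptor Fancf had 0 counts in EGF replicate 5, against 7.74 to 10.8 and 3.89 to 6.83 CPM in the other 9 libraries; without it the log2 fold changes were 0.16 ± 0.15 and 0.08 ± 0.22, and with it -0.16 ± 0.71 and -0.24 ± 0.70. Fancc, a core member whose value in EGF replicate 5, 13.3 CPM, lay close to the mean of the others, was at 10.3 to 14.3 CPM with saline and 13.4 to 17.4 CPM in EGF replicates 1 to 4 (log2 fold change 0.27 ± 0.15 without EGF replicate 5, edgeR adjusted p = 0.385). Fancb, the subunit encoded on the X chromosome, had -0.32 ± 0.21, and Fancg -0.19 ± 0.15 in that fit, against -0.18 ± 0.28 and 0.09 ± 0.26 with all libraries. Fancm, the translocase that brings the complex to DNA, was the core gene with the most counts, 241 to 399 per library, and had -0.01 ± 0.13 with all libraries and 0.07 ± 0.09 without EGF replicate 5. Exons of other genes lie opposite 18.6% of the exonic bases of Fancc, 15.0% of those of Fancf and 10.5% of those of Fanca, so their reads may be shared.

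Fancd2 and Fanci encode the pair that receives ubiquitin. Fancd2 was at 36.2, 38.9, 34.8, 38.3 and 38.3 CPM in Saline replicates 1 to 5 and at 41.9, 41.7, 36.7, 31.9 and 85.9 CPM in EGF replicates 1 to 5. EGF replicates 1 and 2 lay above the saline range, replicate 3 inside it and replicate 4 below it, each by a small margin, while EGF replicate 5 was at 2.28 times the mean of the other 9 libraries. The log2 fold change was 0.35 ± 0.24, and 0.03 ± 0.09 without EGF replicate 5, with a 95% interval of -0.17 to 0.23. Fanci was at 40.0, 32.7, 43.1, 44.2 and 44.9 CPM with saline and 40.4, 37.9, 36.8, 33.4 and 53.0 CPM with EGF. EGF replicates 1 to 4 fell inside the saline range and EGF replicate 5 above it (log2 fold change -0.03 ± 0.15, and -0.14 ± 0.10 without the latter); exons of Polg lie opposite 15.9% of its exonic bases.

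Ube2t encodes the enzyme that works with FANCL to attach ubiquitin to FANCD2 and FANCI. It was at 10.4, 10.2, 9.27, 10.1 and 6.28 CPM with saline and 11.0, 10.7, 9.70, 13.7 and 23.2 CPM with EGF. EGF replicates 1, 2, 4 and 5 exceeded all saline libraries and EGF replicate 3 lay within them, and the saline group included one low library, replicate 5. The log2 fold change was 0.56 ± 0.29, and 0.28 ± 0.18 without EGF replicate 5 (edgeR adjusted p = 0.553 and 0.451). Usp1, which acts in the opposite direction to UBE2T, had the narrowest interval of the 38 genes apart from Rad50 in the fit without EGF replicate 5: its log2 fold change was -0.01 ± 0.06 without EGF replicate 5, with a 95% interval of -0.13 to 0.12, and 0.08 ± 0.10 with all libraries. It was at 224 to 261 CPM with saline and 228 to 248 CPM in EGF replicates 1 to 4.

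Slx4 scaffolds nucleases that cut branched DNA, and Mus81 and Eme1 form one of them. Eme1 was at 16.8, 17.2, 20.9, 18.4 and 16.8 CPM in the saline libraries and at 16.4, 19.1, 16.6, 14.8 and 1.26 CPM in the EGF libraries. EGF replicates 1, 3 and 4 lay just below the saline range and EGF replicate 2 inside it, while EGF replicate 5, with 9 counts, was far below the rest. Without it the log2 fold change was -0.11 ± 0.12, against -0.41 ± 0.49 with it. Exons of Lrrc59 and Mrpl27 lie opposite 10.7% of the exonic bases of Eme1. Mus81 was at 8.65 to 15.0 CPM in 9 libraries and 6.02 CPM in EGF replicate 5, and Slx4 at 46.1 to 60.8 and 102 CPM; without that library Slx4 had -0.03 ± 0.10, and with it 0.21 ± 0.19.

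**Figure D3:**
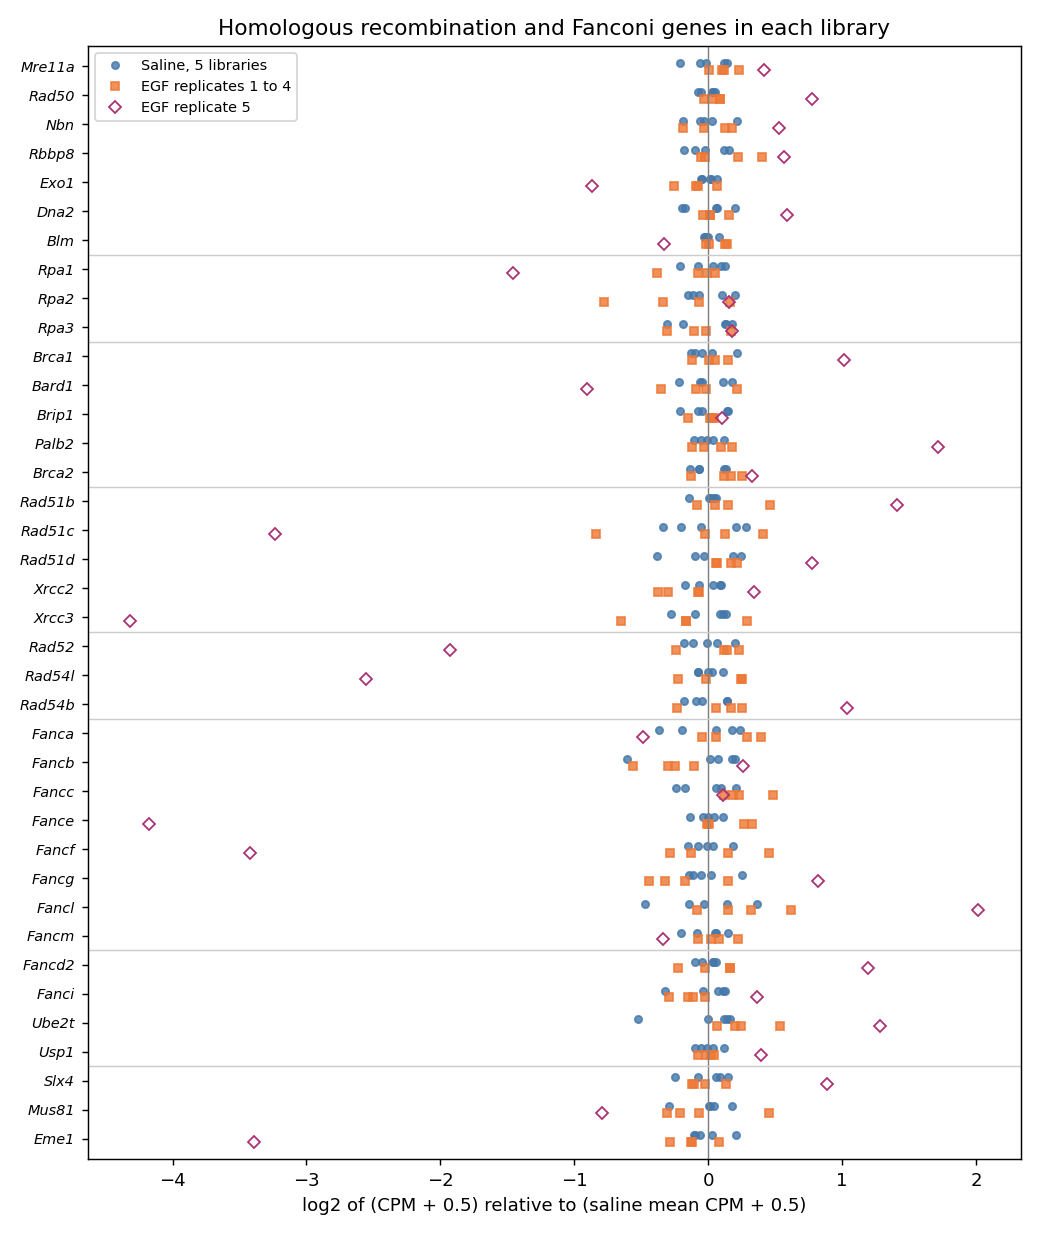
Level of each gene in each library as log2 of CPM plus 0.5 relative to the saline mean, for saline (blue circles), EGF replicates 1 to 4 (orange squares) and EGF replicate 5 (open diamonds). Circles and squares overlap at every gene, and the diamond lies outside them for 35 of 38 genes, above for 21 and below for 14.

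EGF replicate 5 lay above the other 9 libraries for 21 of the 38 genes, below them for 14 and within them for 3, Rpa2, Brip1 and Fancc. That is 92.1% of the set, beside 81.3% of all genes tested. Any other library held the highest or lowest value at 2.6% to 23.7% of the members. The median distance of a member from its median over the 10 libraries was 0.79 on the log2 scale in EGF replicate 5 and 0.06 to 0.15 in the others, and over all genes tested it was 0.93 against 0.10 to 0.19. By role, the 4 genes of the FANCD2 and FANCI cycle were all above the other libraries. The Fanconi core genes were above for 3, below for 4 and within for 1, and the recombinase paralogs above for 3 and below for 2. End resection genes were above for 5 and below for 2, and the BRCA genes above for 3, below for 1 and within for 1. RPA genes were above, below and within for 1 each. The RAD52 and RAD54 genes and the nucleases were each above for 1 and below for 2. The share of all genes in each direction was not counted, and differences between roles were not tested.

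**Figure D4:**
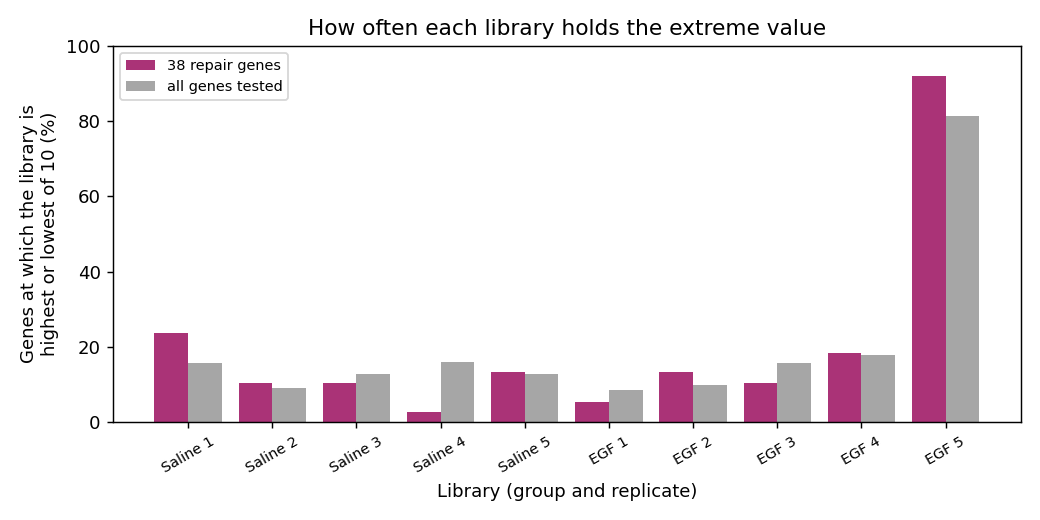
Share of genes, in percent, at which each library holds the highest or lowest value of the 10, for the 38 repair genes and for all genes tested. EGF replicate 5 is at 92.1% and 81.3%, and the other 9 libraries are at or below 23.7%.

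A further 47 genes of the pathway outside the set were listed from general knowledge of it, and all were tested. By edgeR 0 passed; 3 had an unadjusted p under 0.05, all higher with EGF, which is 6.38% beside 8.87% of all genes, and the median log2 fold change was 0.04. Zgrf1, a helicase of crosslink repair, led them with 37.1, 39.2, 42.9, 36.4 and 45.3 CPM in Saline replicates 1 to 5 and 42.9, 44.95, 63.2, 59.8 and 54.4 CPM in EGF replicates 1 to 5. EGF replicates 3 to 5 were above all saline libraries and the other 2 in the upper part of their range (log2 fold change 0.40 ± 0.13, edgeR adjusted p = 0.551, and 0.39 ± 0.12 without EGF replicate 5). Next came the chromatin remodeler Atrx (log2 fold change 0.39 ± 0.16), Mcm9, a helicase that works with MCM8 (0.25 ± 0.11), and the RecQ helicase Wrn (0.37 ± 0.17), with log2 fold changes of 0.21 ± 0.08, 0.23 ± 0.10 and 0.15 ± 0.06 without that library. Exons of Asf1a lie opposite 19.2% of the exonic bases of Mcm9. The groups did not overlap for 2 of these 47 genes, Wrn and Bod1l, which protects stalled forks and was named after its values were seen; without EGF replicate 5 the helicase gene Helq, also named after its values were seen, joined them. That is 2 and then 3 of 47 genes, where the groups did not overlap for 3.27% and 5.01% of all genes. Without EGF replicate 5, 8 of the 47 had an unadjusted p under 0.05, 7 higher and 1 lower, where 15.8% of all genes did, and 0 passed. The lower one, Shfm1, was named after its values were seen and had the smallest p of the 47 in that fit. Its log2 fold change was -0.225 ± 0.071 there (edgeR adjusted p = 0.191) and -0.133 ± 0.105 with all libraries.

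Most genes of homologous recombination are more active in S and G2 phase, so genes of S phase and mitosis were counted beside them. Of 35, 0 passed edgeR and 1 (2.86%) had an unadjusted p under 0.05, where 8.87% of all genes did, with 13 above 0, 22 below 0 and a median log2 fold change of -0.12. With all libraries, DNA replication genes had the smallest p. Gins2, of the replicative helicase, was at 30.1 ± 3.25 CPM with saline and 23.6 ± 3.76 CPM with EGF (SD, n = 5 each). Pcna, the sliding clamp, was at 189 ± 13.7 and 162 ± 21.4 CPM, and Rrm2, a subunit of ribonucleotide reductase, at 89.5 ± 14.5 and 60.2 ± 23.0 CPM. The cyclin gene Ccna2 was at 142 ± 11.1 and 109 ± 34.9 CPM, and their log2 fold changes were -0.35 ± 0.15, -0.22 ± 0.10, -0.57 ± 0.27 and -0.38 ± 0.21, with edgeR adjusted p from 0.551 to 0.568. EGF replicate 5 was the lowest library for each: Gins2 (18.5 CPM), Pcna (135 CPM), Rrm2 (23.9 CPM) and Ccna2 (54.8 CPM). Without it the log2 fold changes were -0.27 ± 0.11, -0.16 ± 0.08, -0.37 ± 0.14 and -0.21 ± 0.10, in that order. Exons of Gse1 lie opposite 67.3% of the exonic bases of Gins2, and exons of Exosc9 opposite 12.5% of those of Ccna2; with no stated strand setting their reads cannot be told apart there. Mki67, the proliferation marker, had 0.17 ± 0.12, and 0.04 ± 0.07 without EGF replicate 5. Without that library 6 of the 35 (17.1%) had an unadjusted p under 0.05, all lower, where 15.8% of all genes did, and 0 passed. The smallest p in that fit was that of the mitosis gene Plk1, named after its values were seen. Its log2 fold change was -0.347 ± 0.117 there (edgeR adjusted p = 0.21) and -0.255 ± 0.147 with all libraries. The difference between these 35 genes and the 38 repair genes was not tested.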

How the data were processed

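The authors deposited 1 file per library with whole-number counts of reads per gene, not normalized. STAR, bcl2fastq 2.17, GRCm38 and mm10 are named in the submitters' processing notes. A Qiagen RNeasy Micro kit and a Clontech kit with rRNA depletion and PCR were used, per the labels' protocols. How reads were counted, the strand setting and the annotation release are not given. PCR copies cannot be told apart, so floors cover counting error only.

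Date-like entries in place of 27 symbols were replaced by identifier from GENCODE M21 (GRCm38), which also gave exon lengths and overlaps. Libraries were compared in pairs, and none looked like a repeat of another (chi-square at least 5.94 times its degrees of freedom). The test was edgeR 4.0.16 in R 4.3.3: TMM scaling, filterByExpr with a minimum count of 10, quasi-likelihood F test over all 10 libraries and Benjamini-Hochberg adjustment, threshold 0.05. Standard errors came from the F statistic and 95% intervals from the t distribution with the fit's degrees of freedom. Alternatives were RLE and library size scaling, other filters, DESeq2 1.42.0, limma-voom (limma 3.58.1) with quality weights, the replicate block and each library left out. The script was tested on simulated data. Members and lists were chosen with earlier results of these data known. Every member is named; values of all libraries are given for the 5 members with the smallest p in each direction and for Brca1, Brca2, Palb2, Fancd2, Fanci, Fanca, Rad54l, Rpa2, Mre11a and Xrcc2. From the other lists, the 4 genes with the smallest p with all libraries and Mki67 are named. Shfm1 and Plk1 are named for the smallest p of their lists without EGF replicate 5.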

Additional observations from a re-analysis of the deposited data

Results flagged for a closer look

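In 17 cases, 1 of the 5 libraries of a group lay far from the other 4 (gap to the nearest library divided by the range above 0.71), a distance that chance gives for about 1 in 20 groups. EGF replicate 5 was that library in all 13 cases in the EGF group, which is 34.2% of the 38 genes beside 29.6% of all genes tested. It lay above the other 4 for 11: Rad50 at 344 CPM, Dna2 at 94.4, Brca1 at 214, Palb2 at 64.9, Rad51b at 25.4, Rad51d at 32.6, Rad54b at 52.8, Fancl at 41.3, Fancd2 at 85.9, Usp1 at 316 and Slx4 at 102 CPM. It lay below them for Fance, at 0, and Eme1, at 1.26 CPM.

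In the saline group the share was 10.5% of the 38 genes, beside 5.5% of all genes tested, and 4 different libraries were involved. Blm was at 66.0 CPM in replicate 4, against 61.0 to 62.2 in the others, and Rad51b at 8.30 CPM in replicate 2, against 9.27 to 9.65. Fancb was at 4.70 CPM in replicate 1, against 7.48 to 8.56, and Ube2t at 6.28 CPM in replicate 5, against 9.27 to 10.4.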

How the results depend on the processing

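The count of 0 among the 38 genes held in all 17 alternatives run, as did 0 among the further pathway genes and 0 among the S phase and mitosis genes. The lowest edgeR, DESeq2 or limma adjusted p of a member in any of them was 0.355 (DESeq2). The median log2 fold change of the members was 0.01 to 0.05 under the other scalings, filters and tests and -0.0012 to 0.06 when each library was dropped in turn, the lowest without Saline replicate 1. At an unadjusted p under 0.05 stood Fancl with no filter, by DESeq2 and without EGF replicate 1 or 2, Rbbp8 without EGF replicate 1 or 3, and Brca2 without EGF replicate 2. The count over all genes was 1 with all libraries, 0 with library size scaling, 56 by DESeq2, 12 by limma-voom with quality weights, 0 with the replicate block, and 0 to 8 with any 1 library left out, highest without EGF replicate 5. The block brought no member past the threshold and turned no member's sign. Deviations of same-numbered libraries from their group means had correlations of -0.08 to 0.02, and only for number 5 did the libraries correlate best with their own number. The EGF mean includes EGF replicate 5, which lay far from the rest and so enters every EGF deviation. These correlations therefore could not decide on pairing. The numbers were not treated as pairs because nothing states that they pair libraries.

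The sign of some members turned. Blm was at 0.002 with RLE, 0.003 by DESeq2 and 0.044 by limma-voom, and Rpa3 at 0.005 with RLE and 0.004 by DESeq2. Limma-voom, which weights libraries by quality, also turned Brip1 (-0.016), Rad52 (0.118), Rad54l (0.103), Fance (0.156), Fancf (0.019), Fancg (-0.178), Fancm (0.091), Usp1 (-0.001) and Slx4 (-0.015). With 1 library left out the log2 fold change ranged over -0.044 to 0.066 for Blm, -0.075 to 0.065 for Rpa3, -0.039 to 0.052 for Brip1, -0.292 to 0.074 for Rad52, -0.327 to 0.076 for Rad54l, -0.022 to 0.186 for Fanca, -0.313 to 0.164 for Fance, -0.5 to 0.077 for Fancf, -0.186 to 0.196 for Fancg, -0.071 to 0.065 for Fancm, -0.144 to 0.035 for Fanci, -0.007 to 0.12 for Usp1 and -0.027 to 0.28 for Slx4. The cause of these turns was not tested. Of the genes with few counts, Rad51c (2.14 to 5.78 CPM outside EGF replicate 5) and Fancf had the widest intervals without EGF replicate 5.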
